A study of Homo sapiens with 14 samples.

Results

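Unmodified K562 cells were compared with K562 cells that stably expressed the machinery of a dCas9 capture experiment without a genomic target. K562 is an established human line from a chronic myeloid leukemia, with the BCR-ABL fusion and with erythroid and megakaryocytic features. The modified cells carried a catalytically inactive Cas9 with a Flag and biotin acceptor tag (FB-dCas9), the bacterial biotin ligase BirA and sgGal4, a guide RNA for a yeast sequence with no match intended in the human genome (group sgGal4, n = 3 libraries). The unmodified cells carried none of these (group WT, n = 2 libraries). Both groups were grown in IMDM with fetal bovine serum and antibiotics, and no drug treatment or time point is labelled. The libraries were chosen by their labels alone, 5 of the 14 RNA-seq libraries of the series. The other 9 libraries, 3 each for guides to the fetal globin promoters (sgHBG), the HS2 enhancer (sgHS2) and several elements of the β-globin control region (sgHS1-5), entered the fit and are otherwise given beside single values. The 2 groups differ in dCas9, BirA, the guide and the making of the stable line at once, and the parts of that difference cannot be told apart here. The labels do not say whether the sgGal4 cells were a clone or a pool, or whether replicate libraries came from separate cultures, so the tests below rest on library-to-library variation, part or all of which may be technical. The fit takes this variation from all 14 libraries, so standard errors and p values also carry the spread within the targeting lines.

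A guide RNA directs dCas9 to a matching DNA sequence, where the inactive enzyme binds without cutting, and BirA joins biotin to the acceptor tag so that the bound chromatin can be purified. Cells with a guide that has no genomic target serve as the reference for cells with targeting guides, and their own difference from unmodified cells is the comparison made here. K562 cells are arrested at an early erythroid stage, in which they transcribe embryonic and fetal globin genes, heme enzymes and red cell membrane genes at modest levels.

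The 5 libraries held 9498578 to 11335831 counted reads, and levels are CPM, read counts divided by library size after scaling for composition (TMM). A level of 3 reads corresponded to 0.273 to 0.426 CPM. The pairs WT 1 and 2 and sgGal4 2 and 3 differed by little more than counting noise over the genes compared, with chi-square values per degree of freedom of 1.67 and 1.49. Library sgGal4 1 stood apart from sgGal4 2 and 3, with values of 90.1 and 93.9. Its TMM factor was 0.743, against 0.959 to 1.02 in the others. Transcript lengths, here and below, were those implied by the ratio of deposited counts to RPKM, not annotated ones. Genes in the lowest class of 5 by this length had a median log2 difference from WT of 0.71 in sgGal4 1. Those in the highest class had one of -0.6, while the same medians lay between -0.085 and 0.063 in sgGal4 2 and 3. These medians cover genes with a mean of at least 5 CPM over the 5 libraries. Ribosomal protein genes took 23.6% of the reads of sgGal4 1, 14.2% in each of sgGal4 2 and 3, and 11.2% and 11.4% in WT. The counts of the gene lists and the main differences are therefore also given without sgGal4 1 where it moves them. All 13 K562 markers checked reached 1 CPM in at least 1 library, and their summed level was 2030 CPM in each WT library and 2310 to 2500 CPM in sgGal4. TFRC, the transferrin receptor gene, held much of this sum. It had 474 and 461 CPM in WT 1 and 2 and 703, 1147 and 1141 CPM in sgGal4 1, 2 and 3. Single markers went in both directions, with log2 differences of -1.56 for TAL1, -1.01 for HBZ and 2.59 for KIT. CDKN2A, CDKN2B, MTAP and KLHL9, which lie in or beside the chromosome 9 interval that K562 is known to lack, had 0 reads in all 5 libraries. In sgHS1-5, which entered the fit, they averaged 2.42 ± 2.83, 2.13 ± 2.12, 7.32 ± 9 and 4.67 ± 5.39 CPM (SD). The source of those reads was not tested. In RNA from bulk cells, fewer cells with a transcript and less RNA per cell cannot be told apart.

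Of 14406 genes tested with edgeR's quasi-likelihood test, 6103 passed an adjusted p of 0.05 (42.4%). Of these, 3276 were higher in sgGal4 (22.7%) and 2827 were lower (19.6%). At 2-fold or more, 1627 were higher and 1300 lower. Without sgGal4 1, 7348 of 14400 genes were called (51.0%), 3832 higher (26.6%) and 3516 lower (24.4%), and 5770 genes were called in the same direction in both fits. The median log2 difference over all genes tested was 0.034, and 0.0019 without sgGal4 1. In 4478 genes all sgGal4 libraries lay above both WT libraries (31.1%), and in 4337 all lay below (30.1%). The count fell to 3906 without WT 1 and 3943 without WT 2, where the lone WT library is assumed to vary like the other groups. Fitted on the 5 libraries alone it was 3502, 1816 higher and 1686 lower. Scaling by library size without composition factors moved the median of all genes to -0.16 and the share of calls that were higher from 53.7% to 38.5%.

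The genes at the upper extreme went from no or almost no reads to clear expression. SLC6A15, a neuronal transporter of branched-chain amino acids, had 39.7, 57.7 and 53.03 CPM in sgGal4 1 to 3, against 0 and 0 CPM in WT 1 and 2, at least 366-fold higher (adjusted p = 1.17e-08). LMCD1, a LIM domain transcriptional cofactor, had 39.4, 27.9 and 27.3 CPM in sgGal4 1 to 3, against 0 and 0 CPM in WT 1 and 2 and was at least 218-fold higher (adjusted p = 5.48e-08). NTS, which encodes the peptide neurotensin, had 155, 96.2 and 80.5 CPM in sgGal4 1 to 3, against 0.0962 and 0 CPM in WT 1 and 2, and the ratio of its reads after scaling for depth was 2240 (95% counting interval 402 to 88600, adjusted p = 2.57e-08). Genes at both extremes were named only among those called without overlap between the groups, so their lack of overlap is not a result. Among the sgGal4 libraries, sgGal4 1 was the highest in LMCD1 and NTS and the lowest in SLC6A15. MLLT3, a subunit of the super elongation complex with a role in blood stem cells, had 26.4, 16.6 and 15.2 CPM in sgGal4 1 to 3, against 0 and 0 CPM in WT 1 and 2, at least 132-fold higher. Further genes were the membrane proteins TMEM176A and TMEM176B, the chemokine-like CMTM7, the growth factor PDGFD, the synaptic SLITRK1, the collagen COL11A1 and the caspase regulator CARD16. These 7 had 0 reads in both WT libraries, and their bounds ran from 52.6-fold for CARD16 to 106-fold for TMEM176A. Folds against 0 reads use 3 reads over the group and, like the intervals, cover counting error only.

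The lower extreme held genes that were expressed in WT and lost nearly all reads in sgGal4. FN1, which encodes the matrix protein fibronectin, had 305 and 307 CPM in WT 1 and 2 and 0.851, 1.65 and 1.47 CPM in sgGal4 1, 2 and 3, a log2 difference of -7.79 ± 0.73 (SE, adjusted p = 3.85e-06). NAA11, a mostly testicular N-terminal acetyltransferase, had 23.4 and 22.3 CPM in WT 1 and 2 and 0, 0 and 0 CPM in sgGal4 1, 2 and 3 and was at least 215-fold lower. CXCL11, an interferon-inducible chemokine, had 26.1 and 26.2 CPM in WT 1 and 2 and 0, 0.0968 and 0 CPM in sgGal4 1, 2 and 3 (adjusted p = 9.17e-09). Lack of overlap was a condition for naming these 3 genes, and the sgGal4 libraries were close to each other. SPRR2D, a cornified envelope protein, had 92.1 and 94.7 CPM in WT 1 and 2 and 1.56, 0.774 and 0.917 CPM in sgGal4 1, 2 and 3 (log2 difference -6.47 ± 0.21, adjusted p = 1.32e-09). SSX3, a cancer-testis antigen, had 33.1 and 35.6 CPM in WT 1 and 2 and 0.142, 0.0968 and 0.0917 CPM in sgGal4 1, 2 and 3, and IMPA2, an inositol monophosphatase, followed with a log2 difference of -7.66. The remaining 6 were CTAG2, MAGEA8, S100A6, ATXN3L, GS1-600G8.3 and ABCA5. The first 5 of them had 0 reads in all sgGal4 libraries and bounds of 37.9-fold (GS1-600G8.3) to 90.4-fold (CTAG2), while ABCA5 had 1 read in all. NAA11 and CXCL11 lie on chromosome 4, where 38.8% of the tested genes fell. CTAG2 lies on chromosome X, which holds 15 of the 16 tested members of the cancer-testis list, to which MAGEA8 also belongs. On that chromosome 48.9% of the genes other than cancer-testis antigens fell. The part of that in these falls was not tested.

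**Figure D1:**
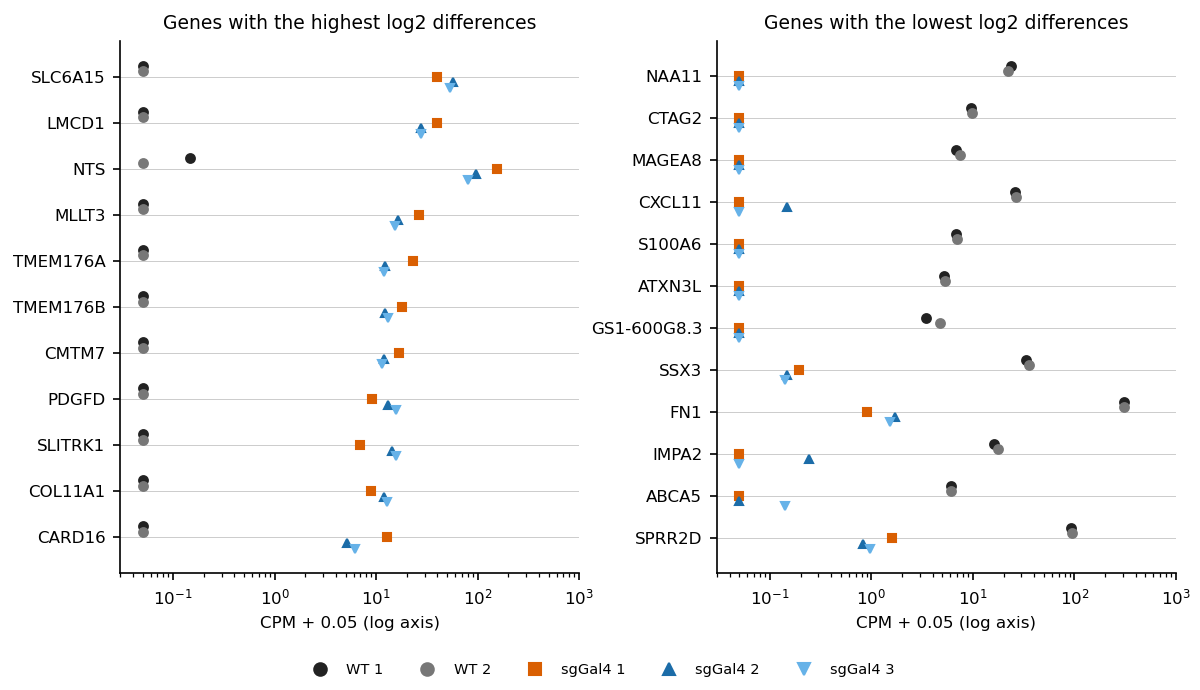
Levels of genes at both extremes of the log2 difference, with 1 point per library (horizontal log axis, CPM with 0.05 added so that 0 can be drawn). The WT points of the upward genes sit at or beside 0 and the sgGal4 points between 5.13 and 155 CPM, and the downward genes show the reverse.

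Genes that differed most in absolute amount were abundant ones. EEF1A1, the elongation factor that carries aminoacyl-tRNA to the ribosome, gained most, with 65340, 39720 and 39930 CPM in sgGal4 1 to 3, against 25390 and 24290 CPM in WT 1 and 2 (log2 difference 0.96 ± 0.19, adjusted p = 0.00153). RPS18, EEF1G, RPL3 and RPL27A followed, all of them translation genes with log2 differences of 1.46, 1.09, 1.04 and 1.56. In all 5 genes sgGal4 1 was the highest library, and without it the differences were 0.68, 0.98, 0.80, 0.79 and 0.99, still past the threshold. The cytoskeletal actins ACTB and ACTG1 lost most, with 2278 and 2346 CPM in WT 1 and 2 and 1579, 1322 and 1246 CPM in sgGal4 1, 2 and 3 for ACTB (log2 difference -0.74 ± 0.19, adjusted p = 0.00714). ATF5, a transcription factor of the amino acid stress response, had 943 and 915 CPM in WT 1 and 2 and 303, 202 and 202 CPM in sgGal4 1, 2 and 3 (log2 difference -1.98 ± 0.28, adjusted p = 0.000127). WARS, the tryptophanyl-tRNA synthetase, and CANX, the lectin chaperone calnexin, completed the losses with log2 differences of -0.99 ± 0.12 and -0.66 ± 0.17. CANX missed the threshold without WT 1 (log2 difference -0.63, adjusted p = 0.0518). Fitted on the 5 libraries alone, the 5 gains missed the threshold at adjusted p values of 0.0533 (RPL3) to 0.135 (EEF1A1), and CANX missed it at 0.122.

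Genes were then read in 44 lists of pathways, complexes and cell type markers, each set beside the share of all genes called, 22.7% higher and 19.6% lower. Lists with most of their tested members called in a single direction included heat shock, cholesterol synthesis, cholesterol efflux and cytosolic ribosomal protein genes (higher) and DNA replication genes, cancer-testis antigens, red cell membrane skeleton genes and integrated stress response genes (lower).

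**Figure D2:**
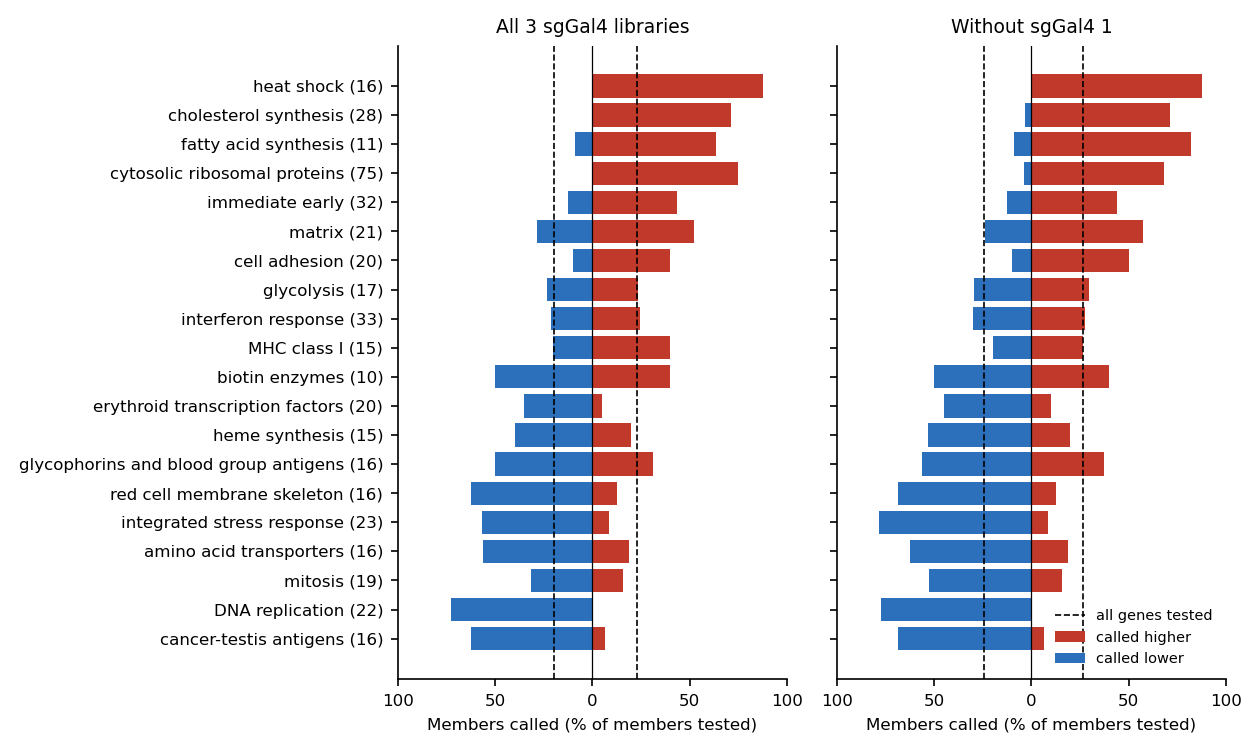
Share of the tested members of 20 lists called higher (red, to the right) or lower (blue, to the left) in sgGal4, with all libraries and without sgGal4 1. Numbers in parentheses are members tested, and the dashed lines mark the shares over all genes tested (22.7% and 19.6%, or 26.6% and 24.4% without sgGal4 1).

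Heat shock genes encode the chaperones that bind unfolded proteins, and their transcription is driven by HSF1. Of 16 members tested 14 rose and none fell, with a median log2 difference of 1.5, against 0.034 over all genes. Without sgGal4 1 the counts were the same and the median was 1.2. HSPA8, the constitutive HSC70, had 483 and 461 CPM in WT 1 and 2 and 2346, 2027 and 2028 CPM in sgGal4 1, 2 and 3 (log2 difference 2.18 ± 0.12, adjusted p = 3.82e-08). HSPA1A, the stress-inducible HSP70, had 35.98 and 40.9 CPM in WT 1 and 2 and 343, 253 and 244 CPM in sgGal4 1, 2 and 3 (log2 difference 2.86 ± 0.18, adjusted p = 1.43e-07). HSPH1, the HSP110 nucleotide exchange factor, had 40.02 and 38.9 CPM in WT 1 and 2 and 174, 148 and 147 CPM in sgGal4 1, 2 and 3 (log2 difference 1.98 ± 0.11, adjusted p = 4.98e-08). Each of these was high in all 3 sgGal4 libraries with no overlap, and sgGal4 1 was the highest. HSPA1B, nearly identical to HSPA1A so that reads of the pair may be split, rose by 2.17 ± 0.18 on the log2 scale, and the HSP40 cochaperone DNAJB1 by 1.26 ± 0.12. Fitted on the 5 libraries alone, 11 of the 16 were called.

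The promoters of HSPA8 and HSPA1A are shown because both genes are among the clearest rises of the list and their promoters hold the letters of the HSF1 binding element, inverted repeats of nGAAn.
The sequences are the 250 bases upstream of the gene start in RefSeq (build GRCh38.p14), at chr11:123062137-123062386, minus strand for HSPA8 and chr6:31815293-31815542, plus strand for HSPA1A, with matches to GAANNTTC or TTCNNGAA, the 2 arrangements of a repeat pair, on either strand in capitals.
HSPA8: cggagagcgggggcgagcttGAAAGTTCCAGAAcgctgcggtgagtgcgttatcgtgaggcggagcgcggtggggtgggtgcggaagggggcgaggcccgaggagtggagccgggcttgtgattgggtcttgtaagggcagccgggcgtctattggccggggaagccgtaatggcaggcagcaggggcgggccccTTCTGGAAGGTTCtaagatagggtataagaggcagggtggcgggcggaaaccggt
HSPA1A: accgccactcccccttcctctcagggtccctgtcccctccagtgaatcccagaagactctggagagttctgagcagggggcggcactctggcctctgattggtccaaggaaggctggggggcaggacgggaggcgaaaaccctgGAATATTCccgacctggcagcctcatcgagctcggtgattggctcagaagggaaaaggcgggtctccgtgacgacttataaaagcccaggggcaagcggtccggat

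RefSeq promoters were found for 14 of the 16 heat shock genes. The motif GAANNTTC was in 5 of them, against 5.85% of 27305 promoters of the same length. The motif TTCNNGAA, which can overlap it, was in 1, against 6.72%. A match is a description of these letters and was not tied to binding in these data.

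The cholesterol synthesis list covers the mevalonate and sterol steps and the SREBP system, which raises their transcription when membrane sterol is low. Of 28 members tested 20 rose and none fell (median log2 difference 0.96), and 20 rose and 1 fell without sgGal4 1 (median 0.94), as 1 did without sgGal4 3. By role, 6 of 8 mevalonate genes, 10 of 12 sterol genes and 4 of 8 uptake and SREBP genes rose. SQLE, the squalene epoxidase, had 160.5 and 155 CPM in WT 1 and 2 and 1212, 986 and 970.2 CPM in sgGal4 1, 2 and 3 (log2 difference 2.74 ± 0.15, adjusted p = 3.88e-08). CYP51A1, the lanosterol demethylase, had 141 and 135 CPM in WT 1 and 2 and 396, 417 and 414 CPM in sgGal4 1, 2 and 3 (log2 difference 1.57 ± 0.10, adjusted p = 1.48e-07). INSIG1, the sterol-regulated brake on SREBP processing, had 276 and 277 CPM in WT 1 and 2 and 608, 645 and 630.4 CPM in sgGal4 1, 2 and 3 (log2 difference 1.18 ± 0.09, adjusted p = 4.84e-07). All sgGal4 libraries were above both WT libraries in each of these 3 genes. IDI1, the isopentenyl diphosphate isomerase, rose by 1.05 ± 0.11 on the log2 scale. The sterol regulatory letters TCACNCCAC were in 1 of the 21 promoters found, against 0.875% of all.

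Fatty acid synthesis genes, which SREBP proteins also regulate, had 7 of 11 members higher and 1 lower (9 and 1 without sgGal4 1). FASN, the fatty acid synthase, had 483 and 502 CPM in WT 1 and 2 and 936, 1550 and 1581 CPM in sgGal4 1, 2 and 3 (log2 difference 1.46 ± 0.19, adjusted p = 6.3e-05), and here sgGal4 1 was the lowest of the sgGal4 libraries. ACSS2, which makes acetyl-CoA from acetate, rose by 0.93 ± 0.10 on the log2 scale, and ME1, the cytosolic malic enzyme, fell (-0.57 ± 0.13). The rises were 3 in number without WT 1, 3 without WT 2 and 2 on the 5 libraries alone, and ME1 did not pass without WT 1. Of 6 cholesterol efflux genes tested 5 rose, with a median of 0.82, and 2 rose on the 5 libraries alone. APOE, a lipoprotein that accepts cholesterol, had 321 and 355 CPM in WT 1 and 2 and 3868, 1511 and 1469 CPM in sgGal4 1, 2 and 3 (log2 difference 2.76 ± 0.39, adjusted p = 0.000123), and 2.14 without sgGal4 1, its highest library. NR1H3, which encodes the sterol receptor LXRα, rose by 1.71 ± 0.22.

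**Figure D3:**
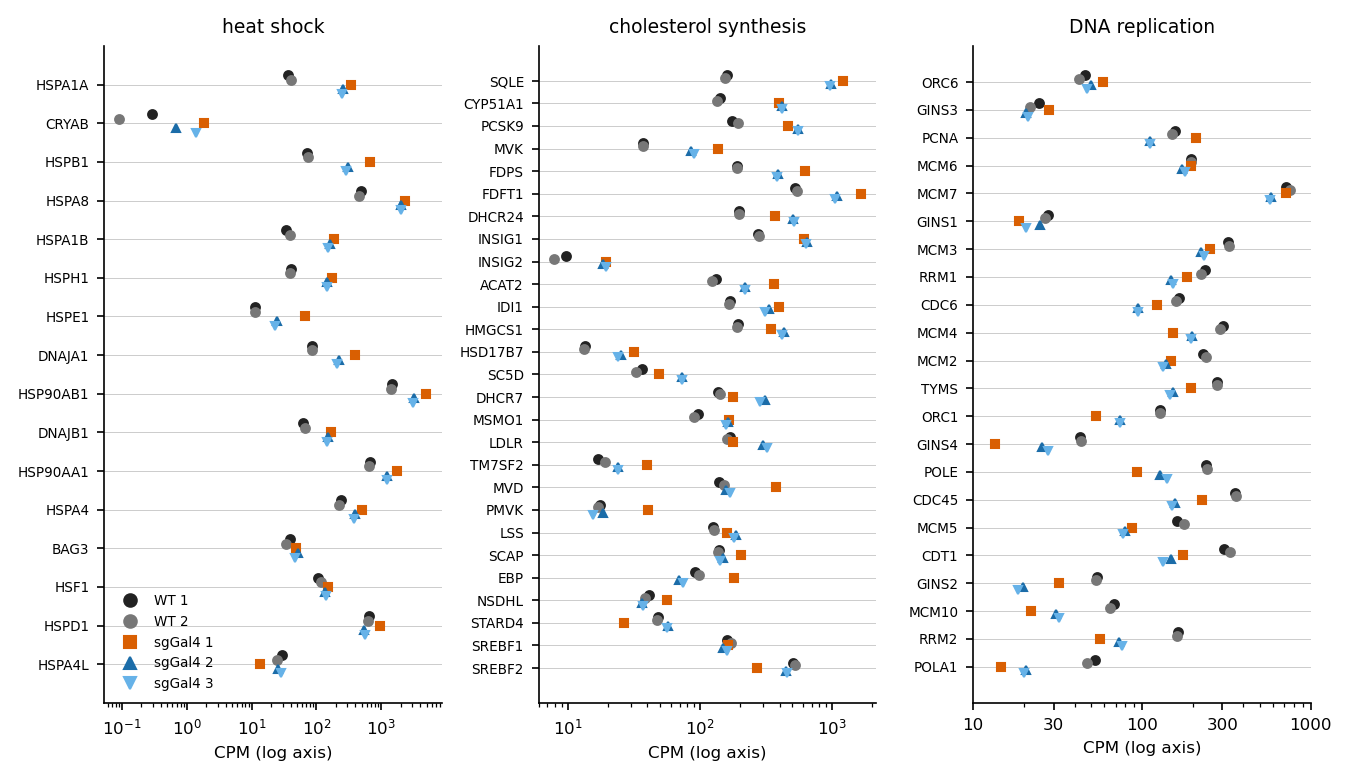
Levels of tested members of the heat shock, cholesterol synthesis and DNA replication lists, ordered by log2 difference, with 1 point per library (horizontal log axis, CPM). The sgGal4 points lie to the right of the WT points for most heat shock and cholesterol genes and to the left for most replication genes.

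DNA replication genes, which license origins and build the fork in S phase, fell together. Of 22 tested, 16 fell and none rose (median log2 difference -0.75), and 17 fell without sgGal4 1 (median -0.79). POLA1, the catalytic subunit of the primase polymerase, had 52.6 and 47.1 CPM in WT 1 and 2 and 14.6, 20.7 and 20.1 CPM in sgGal4 1, 2 and 3 (log2 difference -1.42 ± 0.15, adjusted p = 1.09e-05). MCM10, which loads polymerase at the unwound origin, had 68.02 and 64.9 CPM in WT 1 and 2 and 21.99, 30.9 and 32.4 CPM in sgGal4 1, 2 and 3 (log2 difference -1.22 ± 0.16, adjusted p = 6.49e-05). POLE, the leading strand polymerase, had 239 and 245 CPM in WT 1 and 2 and 93.9, 129 and 142 CPM in sgGal4 1, 2 and 3 (log2 difference -0.99 ± 0.14, adjusted p = 0.000129). The sgGal4 libraries were low without overlap in all 3, and sgGal4 1 was the lowest. MCM5, a subunit of the replicative helicase, fell by 1.07 ± 0.15 and ORC1, which marks origins, by 0.93 ± 0.13 on the log2 scale.

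E2F factors drive S phase genes through TTTGGCGC and TTTCCCGC elements, and the promoters of POLA1 and POLE are shown because both hold the first form.
They are the 250 bases upstream of the gene start in RefSeq (GRCh38.p14), at chrX:24693668-24693917, plus strand for POLA1 and chr12:132687343-132687592, minus strand for POLE, with matches on either strand in capitals.
POLA1: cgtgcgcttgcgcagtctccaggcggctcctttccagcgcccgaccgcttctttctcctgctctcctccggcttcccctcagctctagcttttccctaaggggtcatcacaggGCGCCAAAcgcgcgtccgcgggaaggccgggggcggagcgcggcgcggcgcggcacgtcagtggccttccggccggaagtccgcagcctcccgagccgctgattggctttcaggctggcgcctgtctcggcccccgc
POLE: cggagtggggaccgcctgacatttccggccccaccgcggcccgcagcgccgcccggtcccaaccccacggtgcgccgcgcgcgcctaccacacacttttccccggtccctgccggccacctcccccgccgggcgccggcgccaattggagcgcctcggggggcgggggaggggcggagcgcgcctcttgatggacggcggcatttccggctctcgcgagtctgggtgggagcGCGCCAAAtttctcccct

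Among the 19 replication promoters found, TTTGGCGC was in 3 and TTTCCCGC in 6, against 0.553% and 1.42% of all promoters. Mitotic genes were split, with 3 higher and 6 lower of 19 (3 and 10 without sgGal4 1). CENPE, a kinetochore motor, had 162 and 145 CPM in WT 1 and 2 and 27.7, 42.1 and 43.7 CPM in sgGal4 1, 2 and 3 (log2 difference -2.02 ± 0.21, adjusted p = 1.17e-05), and the cyclin CCNA2 fell by 1.17 ± 0.14, while the anaphase activator CDC20 rose by 0.57 ± 0.11. The 3 rises were reduced to 1 by leaving out sgGal4 2, sgGal4 3, WT 1 or WT 2, and the 6 falls to 3 on the 5 libraries alone. Of 12 replication-dependent histone genes 6 fell and none rose, among them HIST1H2BJ (-1.27 ± 0.15), and 3 fell on the 5 libraries alone, while 1 rose without sgGal4 3.

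The integrated stress response list holds ATF4 targets, the amino acid, one-carbon and regulatory genes induced when translation initiation is limited. Of 23 members 13 fell and 2 rose (median log2 difference -0.81), and 18 fell and 2 rose without sgGal4 1 (median -1), and 1 rose without WT 1. CBS, which condenses serine with homocysteine, had 591 and 616 CPM in WT 1 and 2 and 258, 219 and 228 CPM in sgGal4 1, 2 and 3 (log2 difference -1.36 ± 0.13, adjusted p = 3.44e-06). TRIB3, a pseudokinase that feeds back on ATF4, had 593 and 610.3 CPM in WT 1 and 2 and 258, 208 and 206 CPM in sgGal4 1, 2 and 3 (log2 difference -1.43 ± 0.16, adjusted p = 1.61e-05). SESN2, a leucine sensor of the mTORC1 pathway, had 273 and 289 CPM in WT 1 and 2 and 100, 131 and 125 CPM in sgGal4 1, 2 and 3 (log2 difference -1.24 ± 0.12, adjusted p = 5.71e-06). In each of them both WT libraries were higher than all sgGal4 libraries. CTH, the next enzyme after CBS, fell by 1.16 ± 0.12 and SHMT2, the mitochondrial serine hydroxymethyltransferase, by 1.24 ± 0.14. The letters TGATGNAA, from the element that ATF4 and CEBP factors bind, were in 3 of 18 promoters found, against 3.19% of all. Amino acid transporters had 9 of 16 members lower and 3 higher (10 and 3 without sgGal4 1). SLC7A11, the cystine importer, had 127 and 110 CPM in WT 1 and 2 and 21.7, 36.7 and 32.4 CPM in sgGal4 1, 2 and 3 (log2 difference -1.96 ± 0.23, adjusted p = 2.97e-05), and the glycine transporter SLC6A9 fell by 2.00 ± 0.17, SLC7A8 by 1.55 ± 0.15 and SLC7A5 by 0.87 ± 0.15. The 3 rises, SLC6A15 among them, were 1 without WT 2. Aminoacyl-tRNA synthetases were split at 6 higher and 6 lower of 20, and 6 and 11 without sgGal4 1. GARS and YARS, for glycine and tyrosine, fell by 0.81 ± 0.11 and 0.72 ± 0.11, and RARS, for arginine, rose by 1.58 ± 0.25 (1.20 without sgGal4 1). The 6 rises were 2 without WT 1, without WT 2 or on the 5 libraries alone, and the 6 falls were 3 on the 5 libraries alone and 12 without composition factors.

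The β-globin genes were of interest because the other guides of the series target that locus. HBE1, the embryonic gene, had 342 and 346 CPM in WT 1 and 2 and 544, 240.4 and 239 CPM in sgGal4 1, 2 and 3, with a log2 difference of -0.01 ± 0.31 (adjusted p = 0.984). HBG2 had 122 and 129 CPM in WT 1 and 2 and 166, 58.1 and 60.5 CPM in sgGal4 1, 2 and 3 (log2 difference -0.41 ± 0.36, adjusted p = 0.389), and its near-identical copy HBG1 58.5 and 62.04 CPM in WT 1 and 2 and 130.1, 47.1 and 46.5 CPM in sgGal4 1, 2 and 3 (log2 difference 0.30 ± 0.37, adjusted p = 0.549), so reads of this fetal pair may be split. In all 3 genes sgGal4 1 was above and sgGal4 2 and 3 were below both WT libraries, so the groups overlapped. Without it, HBE1 was lower by 0.52 on the log2 scale (adjusted p = 0.0231) and HBG2 by 1.08 (adjusted p = 0.000341), while HBG1 changed sign and did not pass (-0.36, adjusted p = 0.134). HBD, the minor adult gene, rose from low levels, with 0.962 and 1.18 CPM in WT 1 and 2 and 5.67, 3.77 and 3.21 CPM in sgGal4 1, 2 and 3 (log2 difference 1.94 ± 0.29, adjusted p = 0.000197; 1.69 without sgGal4 1). The pseudogene HBBP1 was at -0.62 ± 0.32 (adjusted p = 0.136), and HBB, the major adult gene, had 14 reads over the 5 libraries and did not reach the filter on low counts. Of the α-globin cluster, HBZ, the embryonic gene, fell, with 12.99 and 13.4 CPM in WT 1 and 2 and 7.94, 5.71 and 6.24 CPM in sgGal4 1, 2 and 3 (log2 difference -1.01 ± 0.24, adjusted p = 0.00508). HBQ1 was at -0.35 ± 0.44 (adjusted p = 0.554) and passed without sgGal4 1 (-1.14, adjusted p = 0.00315). HBA1, at 1.64 and 1.73 CPM in WT 1 and 2 and 3.12, 0.677 and 1.38 CPM in sgGal4 1, 2 and 3, and its near-identical copy HBA2 did not pass (adjusted p = 0.978 and 0.595).

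Red cell membrane genes fell more often than they rose. Of 16 membrane skeleton genes 10 fell and 2 rose (median log2 difference -1.3), and 11 fell and 2 rose without sgGal4 1 (median -1.1), with 1 rise without WT 1. SPTB, the β-spectrin of the red cell skeleton, had 60.1 and 59.3 CPM in WT 1 and 2 and 15.9, 21.8 and 23.6 CPM in sgGal4 1, 2 and 3 (log2 difference -1.54 ± 0.18, adjusted p = 2.58e-05), and all sgGal4 libraries were below both WT libraries. The actin-capping adducin ADD1 and the glucose transporter SLC2A1 fell by 0.82 ± 0.10 and 1.34 ± 0.18, and STOM, the membrane protein stomatin, rose by 1.38 ± 0.16. GYPE, a glycophorin gene, had 69.9 and 69.5 CPM in WT 1 and 2 and 11.2, 7.64 and 8.81 CPM in sgGal4 1, 2 and 3 (log2 difference -2.93 ± 0.18, adjusted p = 9.72e-08). GYPB, another member of this family of close copies, between which reads may be split, fell by 2.64 ± 0.29. Both genes lie on chromosome 4, where 38.8% of the tested genes fell, and the part of that in their fall was not tested. Of the 12 Rh and other blood group genes tested 5 rose and 4 fell, and over the whole list of 16 blood group genes 5 rose and 8 fell (6 and 9 without sgGal4 1). AQP1, the water channel of the Colton antigen, had 59.7, 61.3 and 63.9 CPM in sgGal4 1 to 3, against 4.23 and 2.19 CPM in WT 1 and 2 (log2 difference 4.26 ± 0.23, adjusted p = 4.03e-08), and RHAG, the Rh-associated glycoprotein, fell by 0.85 ± 0.13.

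Heme synthesis genes had 6 of 15 members lower and 3 higher, and 8 and 3 without sgGal4 1. FECH, which inserts iron into heme, had 90.2 and 85.6 CPM in WT 1 and 2 and 30.6, 28.1 and 25.1 CPM in sgGal4 1, 2 and 3 (log2 difference -1.66 ± 0.11, adjusted p = 2.07e-07). ALAS2, the erythroid first enzyme, fell by 0.94 ± 0.19, ALAD by 0.84 ± 0.11, the mitochondrial iron importer SLC25A37 by 1.16 ± 0.13 and its partner ABCB10 by 1.10 ± 0.23. The 3 rises were 1 without WT 2 or on the 5 libraries alone. Iron handling genes had 4 of 11 higher and 3 lower (4 and 4 without sgGal4 1), with TFRC, the transferrin receptor, at 474 and 461 CPM in WT 1 and 2 and 703, 1147 and 1141 CPM in sgGal4 1, 2 and 3 (log2 difference 1.09 ± 0.19, adjusted p = 0.000514). The iron exporter SLC40A1 rose by 1.40 ± 0.20 and the ferrireductase STEAP3 by 0.76 ± 0.17. BLVRB, a biliverdin reductase, fell by 0.97 ± 0.22, and the falls in this list were 1 without WT 1 or WT 2. Erythroid transcription factors had 7 of 20 lower and 1 higher, and 9 and 2 without sgGal4 1. TAL1, which nucleates the erythroid GATA1 complex, had 144 and 144 CPM in WT 1 and 2 and 42.6, 50.2 and 53.3 CPM in sgGal4 1, 2 and 3 (log2 difference -1.56 ± 0.16, adjusted p = 6.78e-06). SOX6, a repressor of embryonic globin, fell by 1.51 ± 0.33, the small MAF protein MAFG by 0.83 ± 0.12 and the TAL1 corepressor CBFA2T3 by 0.45 ± 0.10. The falls were 4 in number without WT 1, 4 without WT 2 and 3 on the 5 libraries alone, and the rise was lost without WT 1. Among the 15 genes taken for K562 identity 3 fell and 2 rose, 6 and 3 without sgGal4 1, and KIT, the stem cell factor receptor, had 78.6, 109.5 and 115 CPM in sgGal4 1 to 3, against 18.7 and 14.9 CPM in WT 1 and 2 (log2 difference 2.59 ± 0.23, adjusted p = 2.4e-06).

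**Figure D4:**
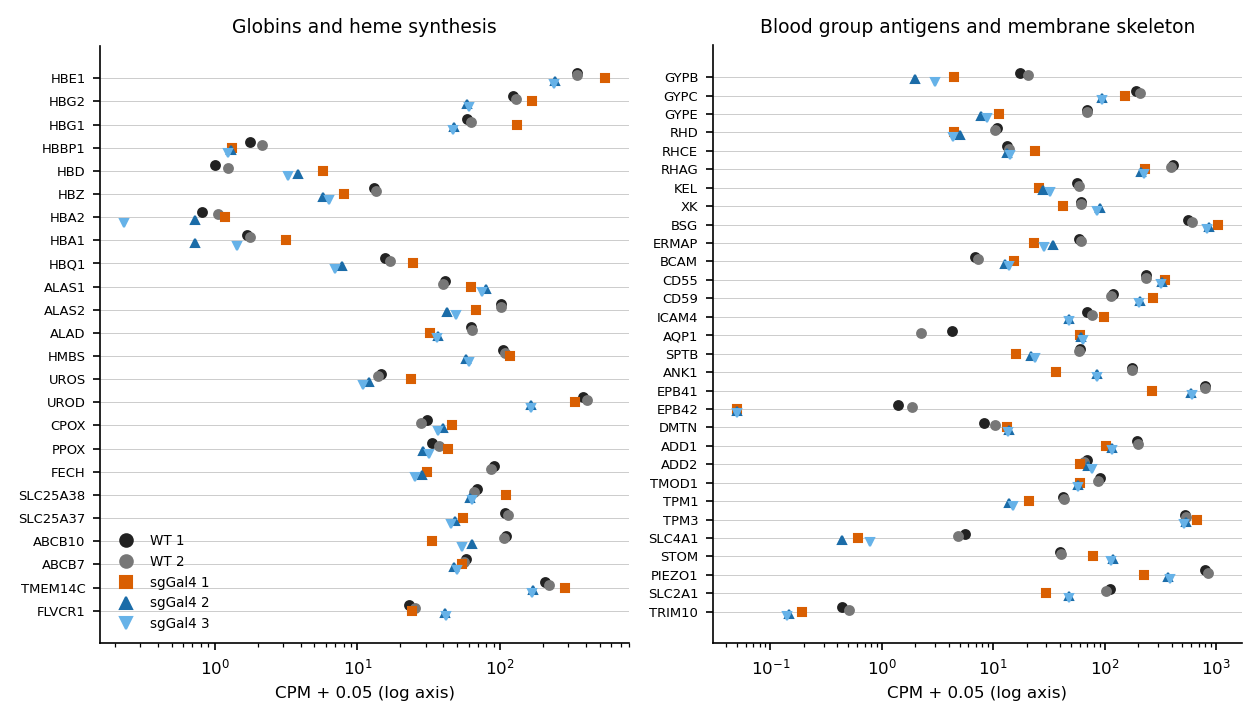
Levels of globin and heme synthesis genes (left) and of blood group and membrane skeleton genes (right), with 1 point per library (horizontal log axis, CPM with 0.05 added). For HBE1, HBG2 and HBG1 the sgGal4 1 point lies on the other side of the WT points from sgGal4 2 and 3, while for GYPE, SPTB and FECH all sgGal4 points lie below WT.

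Ribosomal protein genes, short and abundant, had 56 of 75 members higher and none lower (median log2 difference 0.93). Without sgGal4 1, the library with the excess of short transcripts, 51 were higher and 3 lower and the median was 0.42. RPS27 had 1079 and 1134 CPM in WT 1 and 2 and 5253, 2510 and 2589 CPM in sgGal4 1, 2 and 3 (log2 difference 1.64 ± 0.28, adjusted p = 0.000495; 1.21 without sgGal4 1). The sgGal4 2 and 3 libraries were also above both WT libraries for this gene. The count was 19 without WT 1, 20 without WT 2 and 3 on the 5 libraries alone, and the many processed pseudogenes of this family make single-gene counts uncertain. Translation factors had 8 of 14 higher and none lower (the same 8 in number without sgGal4 1, 2 on the 5 libraries alone), with EIF4A2, a helicase of initiation, at 189 and 191 CPM in WT 1 and 2 and 682, 485 and 476 CPM in sgGal4 1, 2 and 3 (log2 difference 1.53 ± 0.14, adjusted p = 4.4e-06). Nuclear genes of the respiratory chain had 7 of 32 higher and none lower (21.9% against 22.7% of all genes) with a median of 0.50, but 6 higher, 6 lower and a median of -0.087 without sgGal4 1. That list had 12 to 14 higher without sgGal4 2 or 3, and 1 and 2 higher without WT 1 and WT 2.

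Adhesion and matrix genes held several of the largest single changes. CD44, the hyaluronan receptor, had 232, 240.3 and 237 CPM in sgGal4 1 to 3, against 4.91 and 3.92 CPM in WT 1 and 2 (log2 difference 5.74 ± 0.18, adjusted p = 1.32e-09). ITGA4, the α4 integrin of leukocytes, had 62.6, 138 and 135 CPM in sgGal4 1 to 3, against 0.770 and 0.364 CPM in WT 1 and 2 (log2 difference 7.61 ± 0.54, adjusted p = 3.74e-07). SELPLG, the ligand of P-selectin, had 54.5, 49.3 and 45.05 CPM in sgGal4 1 to 3, against 5.58 and 4.55 CPM in WT 1 and 2 (log2 difference 3.29 ± 0.16, adjusted p = 1.79e-08). Each was under 6 CPM in WT and clearly detected in every sgGal4 library, though ITGA4 was lower in sgGal4 1 than in the other sgGal4 libraries. ITGB5 and ALCAM rose as well (2.04 ± 0.16 and 5.01 ± 0.87), and in all 8 of 20 adhesion genes rose and 2 fell (10 and 2 without sgGal4 1), with 1 fall without sgGal4 2 or 3 and 0 without either WT library. Of 21 matrix genes 11 rose and 6 fell (12 and 5 without sgGal4 1), with 7 higher and 2 lower of 10 collagens and 4 higher and 4 lower of 11 matrix glycoproteins. COL6A1 had 23.8, 18.6 and 17.4 CPM in sgGal4 1 to 3, against 1.64 and 1.09 CPM in WT 1 and 2 (log2 difference 3.86 ± 0.29, adjusted p = 5.74e-07), COL24A1 12.5, 15.1 and 13.4 CPM in sgGal4 1 to 3, against 0.0962 and 0 CPM in WT 1 and 2 and COL4A2 a log2 difference of 1.94 ± 0.17, while FN1, given above, fell. Among 12 serpins 5 rose and 1 fell, among them SERPING1, the C1 inhibitor, with 16.03, 16.2 and 15.1 CPM in sgGal4 1 to 3, against 0.481 and 0.273 CPM in WT 1 and 2 (log2 difference 5.34 ± 0.26, adjusted p = 1.73e-08), and the falls were 2 without sgGal4 1 and 0 without either WT library. Of 12 complement genes 7 rose and 1 fell (6 and 1 without sgGal4 1). CD46, a membrane regulator that protects host cells from complement, had 370.2, 483 and 476 CPM in sgGal4 1 to 3, against 246 and 247 CPM in WT 1 and 2 (log2 difference 0.85 ± 0.13, adjusted p = 0.000283), and CFI, a protease that inactivates C3b, had 3.66 and 6.01 CPM in WT 1 and 2 and 0.284, 0.194 and 0 CPM in sgGal4 1, 2 and 3.

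Markers of other blood cell types were mostly low. Of 8 defining megakaryocyte markers 5 were under 1 CPM in every library (among them GP9, PF4, PPBP and VWF), and the summed level was 47.3 to 48.1 CPM in WT and 54.7 to 66.7 CPM in sgGal4. Of the 17 megakaryocyte genes tested 4 rose and 1 fell, with THBS1, the platelet thrombospondin, at 10.4, 21.6 and 22.9 CPM in sgGal4 1 to 3, against 0.0962 and 0.0911 CPM in WT 1 and 2, and RAB27B, which docks granules, higher by 1.75 ± 0.29 on the log2 scale, and no fall without WT 2. The defining myeloid markers MPO, ELANE, CD14 and CSF1R were under 1 CPM, while the summed level of the 7 was 41.8 to 45.5 CPM in WT and 172 to 213 CPM in sgGal4, most of it LYZ. LYZ, which encodes lysozyme, had 149, 202 and 203 CPM in sgGal4 1 to 3, against 35.1 and 37.5 CPM in WT 1 and 2 (log2 difference 2.35 ± 0.56, adjusted p = 0.00482), and TYROBP, an adaptor of activating receptors, had 45.5, 27.5 and 27.2 CPM in sgGal4 1 to 3, against 4.81 and 5.83 CPM in WT 1 and 2. Of 16 myeloid genes tested 4 rose and none fell, 3 and 1 without sgGal4 1, and 2 rose without either WT library. Defining T, NK and B cell markers summed to at most 5.96 CPM in any library, and 2 of 15 lymphoid genes rose and 1 fell, which became 2 and 2 without sgGal4 1, while the rises were 1 without WT 1 and 0 without WT 2 and the fall was lost without sgGal4 2, sgGal4 3 or WT 2. Fibroblast markers summed to 4.81 to 4.83 CPM in WT and 19 to 21.1 CPM in sgGal4, with LUM and PDGFRA at 0 reads. Epithelial markers summed to 851 to 854 CPM in WT and 801 to 1430 CPM in sgGal4, and endothelial markers to 2.6 to 4.28 and 0.734 to 1.16 CPM. Of 9 fibroblast, endothelial and epithelial genes tested 3 rose, COL1A1 (2.32 ± 0.22) and COL1A2 (2.19 ± 0.28) among them, and 1 fell (2 and 1 without sgGal4 1). The fall was that of PECAM1, an endothelial and platelet adhesion receptor (-1.77 ± 0.64, adjusted p = 0.0392), which did not pass without any one of the other 4 libraries. The megakaryocyte, myeloid and lymphoid counts were near or below the shares of all genes, 22.7% higher and 19.6% lower. They are not read as results about these lists. The part of other cells in these results was not tested.

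Biotin is the cofactor of 5 carboxylases and the substrate of BirA. Of 10 genes for carboxylases and biotin handling 4 rose and 5 fell, with and without sgGal4 1. By role, 2 of 7 carboxylase genes rose and 4 fell, and of 3 biotin handling genes 2 rose and 1 fell. PC, the pyruvate carboxylase, had 33.4 and 34.2 CPM in WT 1 and 2 and 6.24, 6.68 and 6.05 CPM in sgGal4 1, 2 and 3 (log2 difference -2.41 ± 0.14, adjusted p = 6.05e-08). ACACB, the mitochondrial acetyl-CoA carboxylase, had 30.98 and 32.9 CPM in WT 1 and 2 and 2.13, 5.13 and 4.68 CPM in sgGal4 1, 2 and 3 (log2 difference -2.96 ± 0.24, adjusted p = 1.51e-06). HLCS, the endogenous biotin ligase, had 86.5 and 88.9 CPM in WT 1 and 2 and 37.02, 50.8 and 52.4 CPM in sgGal4 1, 2 and 3 (log2 difference -0.90 ± 0.14, adjusted p = 0.000239), and MCCC1 fell by 0.79 ± 0.11. These 4 were low in all sgGal4 libraries without overlap. BTD, which recycles biotin, rose by 0.52 ± 0.13, and the 4 rises fell to 0 without WT 1 or on the 5 libraries alone and to 1 without WT 2.

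Immediate early genes, the first to answer growth factor and stress signals, had 14 of 32 members higher and 4 lower, with and without sgGal4 1 (2 lower without WT 2), and 8 of the 13 AP-1 and EGR genes rose. EGR1 had 42.6, 62.2 and 62.9 CPM in sgGal4 1 to 3, against 16.7 and 16.7 CPM in WT 1 and 2 (log2 difference 1.75 ± 0.19, adjusted p = 1.21e-05), FOSB 5.11, 5.90 and 4.13 CPM in sgGal4 1 to 3, against 0.577 and 0.456 CPM in WT 1 and 2, and ID3, an inhibitor of helix-loop-helix factors, fell by 2.03 ± 0.20. The list of p53 and DNA damage targets, in a line without functional p53, had 6 of 19 higher and 3 lower (6 and 6 without sgGal4 1, and 1 lower without WT 2). CDKN1A, the CDK inhibitor p21, had 79.6, 80.3 and 83.03 CPM in sgGal4 1 to 3, against 28.7 and 25.8 CPM in WT 1 and 2 (log2 difference 1.57 ± 0.12, adjusted p = 8.12e-07). Interferon response genes were split at 8 higher and 7 lower of 33, 9 and 10 without sgGal4 1, near the shares of all genes. BST2, which tethers budding virus, had 511, 222 and 212 CPM in sgGal4 1 to 3, against 75.5 and 76.7 CPM in WT 1 and 2 (log2 difference 2.05 ± 0.33, adjusted p = 0.000287; 1.51 without sgGal4 1), while RSAD2 fell by 1.69 ± 0.22 and PARP9 by 1.42 ± 0.17. The interferon rises were 4 without WT 1 and 5 without WT 2, and the falls 4 without WT 1. DNA sensing genes had 3 higher and 2 lower of 10 (2 and 1 without sgGal4 1), with TMEM173, which encodes STING, higher by 0.88 ± 0.15 and IFI16 lower by 1.33 ± 0.24, and 1 was lower without WT 1 or WT 2. MHC class I genes had 6 higher and 3 lower of 15, and 4 and 3 without sgGal4 1. Of 6 MHC class II genes, all under 3 CPM in each of the 5 libraries, none passed edgeR's test, and 1 was higher without sgGal4 2 or sgGal4 3. Without the sgHS1-5 libraries, where CD74 averaged 88.1 ± 108 CPM (SD), 3 were higher, while 0 passed on the 5 libraries alone. The rises of class I were 3 without WT 1, and its falls 1 without either WT library.

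Glycolysis had 4 higher and 4 lower of 17 (5 and 5 without sgGal4 1), among them the hexokinase HK1 (797 and 776 CPM in WT 1 and 2 and 291, 291 and 281 CPM in sgGal4 1, 2 and 3, log2 difference -1.45 ± 0.13) and the glucose transporter SLC2A3 (1.33 ± 0.14), with 2 higher without either WT library. Hypoxia genes had 4 higher and 4 lower of 15 (4 and 5 without sgGal4 1). VEGFA, the angiogenic growth factor, had 510.4 and 521 CPM in WT 1 and 2 and 139, 154 and 156 CPM in sgGal4 1, 2 and 3 (log2 difference -1.79 ± 0.11, adjusted p = 1.48e-07), and P4HA1, the collagen prolyl hydroxylase, had 241, 229.6 and 219 CPM in sgGal4 1 to 3, against 50.2 and 49.4 CPM in WT 1 and 2 (log2 difference 2.21 ± 0.12, adjusted p = 3.26e-08). ER chaperones had 3 higher and 3 lower of 19, and 3 and 6 without sgGal4 1, with HYOU1 lower by 0.68 ± 0.13, no rise without either WT library and 1 fall without WT 1. BCR-ABL and STAT5 genes had 2 higher and 4 lower of 14, with the adaptor GAB2 lower by 0.97 ± 0.18 and STAT5A by 0.84 ± 0.16, and the rises were 1 without sgGal4 2 and 0 without either WT library. Chromatin genes had 3 higher and 7 lower of 23, 4 and 8 without sgGal4 1. The cohesin subunits SMC1A (432 and 419 CPM in WT 1 and 2 and 79.4, 177 and 174 CPM in sgGal4 1, 2 and 3, log2 difference -1.56 ± 0.26) and STAG2 (-1.18 ± 0.21) fell, and both lie on chromosome X. HOX genes had 3 higher and 2 lower of 19, 2 and 5 without sgGal4 1, with 1 rise without sgGal4 3 and 9 falls without composition factors. HOXD13 had 3.12, 3.10 and 3.39 CPM in sgGal4 1 to 3, against 0 and 0 CPM in WT 1 and 2, at least 22.9-fold higher, and HOXB9 fell by 0.99 ± 0.17. Over all genes tested 22.7% were higher and 19.6% lower. With all libraries, the glycolysis, hypoxia, ER chaperone and HOX counts were near or below these shares. The BCR-ABL and STAT5 counts and the DNA sensing counts were also near them. None of these counts is read as a result about its list.

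Cancer-testis antigens, germline genes re-expressed in tumors, had 10 of 16 members lower and 1 higher (median log2 difference -1.1), and 11 and 1 without sgGal4 1. MAGEA1 had 43.6 and 44.9 CPM in WT 1 and 2 and 2.69, 2.42 and 2.02 CPM in sgGal4 1, 2 and 3 (log2 difference -4.23 ± 0.21, adjusted p = 1.88e-08), and SSX1 169 and 167 CPM in WT 1 and 2 and 33.2, 24.8 and 22.2 CPM in sgGal4 1, 2 and 3 (log2 difference -2.66 ± 0.20, adjusted p = 5.47e-07). PAGE1 fell by 4.53 ± 0.33, and near-identical copies within the MAGE, GAGE and SSX families may share reads. Of the 16 tested 15 lie on chromosome X, of which 66.7% were lower with a median of -1.3, and of the other 476 tested genes of that chromosome 48.9% were lower with a median of -0.65. The difference between these shares was not tested.

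Differences were then counted by chromosome, a grouping chosen after the values were seen. Chromosomes were assigned by gene symbol in RefSeq (98.2% of tested genes matched), and 10717 genes with a mean of at least 5 CPM were used, of which 23.9% were higher and 20.6% lower. On chromosome X 188 of 340 genes were lower (55.3%) and 22 higher, with a median log2 difference of -0.65 (-0.71 without sgGal4 1). On chromosome 4 174 of 361 were lower (48.2%) and 26 higher, with a median of -0.52 (-0.47 without sgGal4 1), and on chromosome 15 162 of 340 (47.6%) and 22, with -0.47 (-0.48). The lower medians ran along most of each of these 3 chromosomes. In blocks of 30 neighbouring genes, a median of -0.3 or lower without sgGal4 1 occurred in 33 of 347 blocks, 11 of 12 on chromosome 4, 10 of 11 on chromosome 15 and 10 of 11 on chromosome X. The opposite held for parts of chromosomes 1 and 12, where 33.8% and 35.8% of genes were higher. A block median of 0.3 or more occurred in 36 blocks, 12 of 36 on chromosome 1, all from the block that starts at SLC25A24 onward, and 6 of 19 on chromosome 12, including the first 3, which run from KDM5A to WBP11. All of these counts were smaller on the 5 libraries alone. The higher counts of chromosomes 1 and 12 went from 374 to 197 and from 209 to 108. The lower counts of chromosomes 4, 15 and X went from 174 to 118, from 162 to 102 and from 188 to 130. Of the list genes given above, SLC7A11, which fell, and KIT, which rose, lie on chromosome 4, and POLA1, which fell, on chromosome X. What part the chromosome has in single genes was not tested. DNA copy number was not measured, and its part in these medians was not tested.

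By library, after centring each on its own median over all genes, chromosome X lay at -0.7, -0.72 and -0.71 in sgGal4 1, 2 and 3, chromosome 4 at -0.72, -0.48 and -0.49, and chromosome 15 at -0.59, -0.48 and -0.49. The 2 WT libraries lay within 0.03 of their mean on every chromosome. The targeting lines share the WT libraries as reference and are given side by side only. For chromosome 4 the medians were -0.43 to -0.46 in sgHBG, -0.19 to -0.31 in sgHS2 and -0.045 to -0.41 in sgHS1-5, for chromosome 15 -0.11 to -0.13, -0.074 to -0.13 and -0.21 to -0.22, and for chromosome X -0.25 to -0.28, -0.075 to -0.085 and -0.38 to -0.47. Off chromosomes 4, 15 and X, 15 of 21 replication genes were lower, against 16.7% of 12676 genes. None of the heat shock genes lies on chromosomes 1 or 12, where 6 of the 28 cholesterol genes do. The part of the chromosome medians in these lists was not tested.

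**Figure D5:**
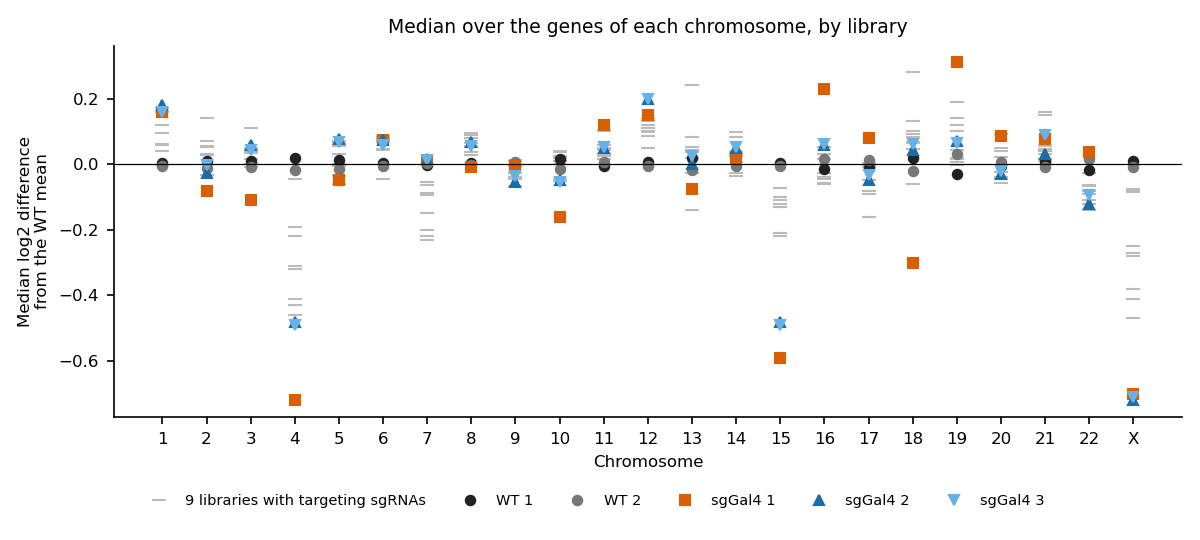
Median log2 difference from the WT mean over the genes of each chromosome (horizontal axis), with 1 point per library after centring on the median of all genes. The sgGal4 points lie between -0.48 and -0.72 on chromosomes 4, 15 and X, and grey bars show the 9 libraries with targeting guides.

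Values of some leading genes in the targeting lines, again without a comparison because they share the WT reference, ranged widely. CD44 averaged 193 ± 4.19 CPM in sgHBG, 116 ± 7.94 in sgHS2 and 200 ± 34.7 in sgHS1-5 (SD, n = 3 each), where WT had under 5 CPM. SQLE averaged 567 ± 12.8, 540 ± 7.91 and 473 ± 68.7 CPM in the same order. TMEM176A, in contrast, averaged 0.379 ± 0.307, 0.348 ± 0.102 and 0.253 ± 0.202 CPM and COL11A1 0.31 ± 0.0784, 0.16 ± 0.0625 and 1.06 ± 0.351 CPM, beside sgGal4 values of 12.02 to 22.8 and 8.79 to 12.8 CPM. Whether these genes differ between sgGal4 and the targeting lines was not tested here.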

How the data were processed

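RNA-seq libraries were made from total RNA of K562 cells with a kit that does not mark strand, so overlapping and antisense genes cannot be told apart. The deposited read counts per gene were made by the authors with a counting tool not given in the sources used here, and the deposited RPKM values are per the labels their normalized levels. The submitters' processing notes list TopHat, Cufflinks, DESeq and hg19, without versions.

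From the counts, edgeR 4.0.16 (R 4.3.3) was fitted to all 14 libraries with a mean per group, TMM factors, its filter (minimum count 10, minimum total 15) and the quasi-likelihood test, with 9 residual degrees of freedom. P values were adjusted by Benjamini-Hochberg over all genes tested, with a threshold of 0.05. Errors of log2 differences are standard errors. They include the spread within sgHS1-5, which was wide in some genes, such as FN1 (97.1 ± 80.6 CPM, SD) and LYZ (253 ± 234 CPM). RPKM served as an alternative (limma 3.58.1), as did DESeq2 1.42.0.

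Named genes, among those called without overlap and with a mean of at least 2 CPM, were the 12 highest and 12 lowest log2 differences and the 5 largest gains and losses in CPM. Also named were all globin genes and, for every other list, the 5 tested members with the smallest p (fewer where fewer were tested). The comparison and the lists were chosen with earlier results of these data known. Promoters and chromosomes came from RefSeq (GRCh38.p14) by symbol. The script was tested on simulated data. Some genes that the rule names are not reported here or drawn in the figures.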

Additional observations from a re-analysis of the deposited data

Results flagged for a closer look

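The deposited RPKM table holds 539 genes that the count table lacks under the same symbol, and these entered no comparison above. Of these, 377 had a value above 0 in at least 1 of the 5 libraries. In 45 genes all sgGal4 libraries reached 1 RPKM and lay above both WT libraries, and in 68 both WT libraries reached 1 RPKM and lay above all sgGal4 libraries. The 10 genes below are those at 1 RPKM or more in every sgGal4 library and over 2 times the higher WT library, a signal in data outside the main measurement that was not tested. The lowest sgGal4 value was 25.1 RPKM for LEPREL2 and 9.65 RPKM for LEPREL4, both collagen prolyl hydroxylase family genes. It was 2.45 RPKM for GPR125, 1.46 RPKM for GPR126 and 1.03 RPKM for LPHN3, all adhesion G protein-coupled receptors. It was 2.57 RPKM for CCDC19 and 1.09 RPKM for FLJ22184. For the uncharacterized LOC100505592, LOC100996609 and LOC645638 it was 4.2, 3.51 and 2.3 RPKM.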

How the results depend on the processing

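The total of 6103 called genes was 3502 on the 5 libraries alone (1816 higher, 1686 lower) and 2606 with a tested minimum of 1.5-fold (1464 higher, 1142 lower). Leaving out 1 library each gave 3906 to 7348 called, 2027 to 3832 higher and 1879 to 3516 lower, lowest without WT 1 and highest without sgGal4 1. It was 5943 to 7187 under RLE factors, library sizes alone, both other filters, DESeq2, limma voom, a trend on transcript length, leaving out sgHS1-5 and RPKM in 3 forms. Whether the labels' replicate numbers pair the libraries could not be judged. The deviations of the 2 WT libraries from their mean mirror each other, and so do their correlations with sgGal4 (-0.18 to 0.18). A replicate block gave 5696 calls and ended 3 of the named calls. HBG1 turned to -0.207 under the length trend, to -0.0674 with 1 added to RPKM with or without a filter, and to -0.0686 with 0.1 added. Without 1 library, HBG1 ran from -0.364 to 0.551, HBE1 from -0.521 to 0.19 and HBA1 from -0.7 to 0.374, with HBE1 at 0.188 and 0.19 without sgGal4 2 and 3, and HBA1 at 0.103 without sgGal4 3 and 0.0103 without WT 2. These 3 genes did not pass with all libraries, HBE1 passed without sgGal4 1 (adjusted p = 0.0231), and the cause was not tested. Only 2 WT libraries limit the precision, and 3 reads set the lower limit of detection.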
